A study of Mus musculus with 10 samples.

Results

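The step between 12h and 24h after a single injection of cyclophosphamide was examined in full-thickness back skin of wild type male C57BL/6 mice aged 7-8 weeks. It rests on 4 of the 10 RNA-seq libraries of the time course, libraries 2 and 3 of 24h set against libraries 2 and 3 of 12h. All mice had been depilated with wax, which sends the follicles into anagen, their growth phase. Those of every time after 0h received cyclophosphamide, a DNA-alkylating prodrug, at 150 mg/kg intraperitoneally on day 9 after depilation. The other libraries, 2 each, were from skin before the injection (0h) and 6h and 48h after it. No vehicle-injected group was used here, so the effect of the drug cannot be told apart from the passing of anagen, and the hour of sampling is not given in the labels. Whether libraries of one time represent different animals is not stated in the labels. The p-values therefore measure the spread among these libraries alone, and that spread may be technical. A change in bulk skin cannot tell fewer cells of a type from less RNA per cell.

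Anagen skin holds several tissues at once. In the hair bulb, matrix cells divide and differentiate into the shaft and its sheaths under Wnt, Hedgehog, BMP and Notch signals, and cyclophosphamide is known to damage these dividing cells. Around the follicle lie dermis, fat and a sheet of skeletal muscle, the panniculus carnosus, and skin cells answer type I interferon by inducing a broad set of antiviral genes. Markers of these tissues were present. Krt14, the basal keratin, stood at 2649 and 4513 FPKM (fragments per kilobase of transcript, adjusted for sequencing depth) in the 24h libraries 2 and 3, against 2086 and 2088 FPKM in the 12h libraries. The skeletal muscle list summed to 12094 and 11615 FPKM at 24h, against 9137 and 13154 FPKM at 12h. Of 25 lymphocyte genes used here 9 reached the level for testing, and Cd8b1 and Ms4a1 were listed at 0 in all 4 libraries.

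The 4 libraries had similar totals and a similar share of hair genes, while genes of blood, dermis and fat varied between libraries of the same time, as given with those lists. Summed FPKM lay between 938995 and 967450, and the relative depth read from low values lay between 1.03 and 1.13, with absolute depth unknown. Correlations of log2(FPKM + 1) between them were 0.980 to 0.987, and libraries of the same time were not set apart from those of the other. Hair shaft keratins and keratin-associated proteins held 17.1% ± 2.18 of the summed FPKM at 24h and 16.9% ± 0.449 at 12h (SD, n = 2 each). With 2 libraries against 2 an exact permutation test cannot go below p = 0.333, so that share carries no test.

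Very few genes passed the test across this step. The test covered the 13625 genes that reached 1 FPKM in 2 or more of the 10 libraries, and 3 of them rose at 24h against 12h and 0 fell, which is 0.0220% of the genes tested (limma, adjusted p under 0.05). The smallest adjusted p among lower genes was 0.0601. At an unadjusted p under 0.05 there were 1349 genes, 733 higher and 616 lower, and at an adjusted p under 0.1 there were 34, 29 higher and 5 lower. The same fit called 0 genes for 12h against 6h (1556 genes at an unadjusted p under 0.05) and 308 for 48h against 24h, 2.26% of the genes tested (166 higher and 142 lower). The median log2 fold change of all genes at 24h against 12h was -0.02 and the median standard error 0.16, on the log2(FPKM + 1) scale, which understates the change of low genes.

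The 3 genes that rose were Myog, Dusp13 and Tcf15. Myog encodes myogenin, the basic helix-loop-helix factor that drives muscle precursor cells to differentiate. It stood at 11.1 and 13.7 FPKM in the 24h libraries, against 1.28 and 0.948 FPKM in the 12h libraries. The groups were far apart, with the mean at 24h 11.1 times that at 12h (log2 fold change 2.66, SE 0.19, 95% interval 2.24 to 3.09, limma adjusted p = 0.00100). At 0h it had been at 0.864 and 0.867 FPKM and at 6h at 1.996 and 1.49 FPKM, so the 24h libraries were also above every earlier one. At 48h it reached 29.5 and 20.99 FPKM, above both 24h libraries (log2 fold change 0.95 for 48h against 24h, limma adjusted p = 0.0376). Myog lies on chromosome 1 (mm10, GENCODE M21, chr1:134289989-134292548, plus strand).

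Dusp13 encodes dual-specificity phosphatases found in skeletal muscle and testis. It stood at 16.1 and 15.4 FPKM in the 24h libraries, against 5.71 and 6.29 FPKM in the 12h libraries, a ratio of means of 2.62 (log2 fold change 1.26, SE 0.12, limma adjusted p = 0.00687). It had been at 6.60 and 6.23 FPKM at 0h and 4.47 and 5.05 FPKM at 6h, below both 24h libraries. At 48h both libraries were at 18.2 FPKM, a difference from 24h that did not pass (log2 fold change 0.20, limma adjusted p = 0.405). Tcf15 encodes another basic helix-loop-helix factor, known from the paraxial mesoderm of the embryo. It stood at 5.90 and 6.34 FPKM in the 24h libraries, against 1.46 and 1.39 FPKM in the 12h libraries (log2 fold change 1.55, SE 0.18, limma adjusted p = 0.0337). Its mean was highest at 24h of the 5 times, with 3.34 and 2.50 FPKM at 0h, 1.43 and 2.33 FPKM at 6h and 4.21 and 3.74 FPKM at 48h, though 48h against 24h did not pass (log2 fold change -0.52, limma adjusted p = 0.164). Dusp13 lies at chr14:21733394-21751181 on the minus strand and Tcf15 at chr2:152143561-152149097 on the plus strand.

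**Figure D1:**
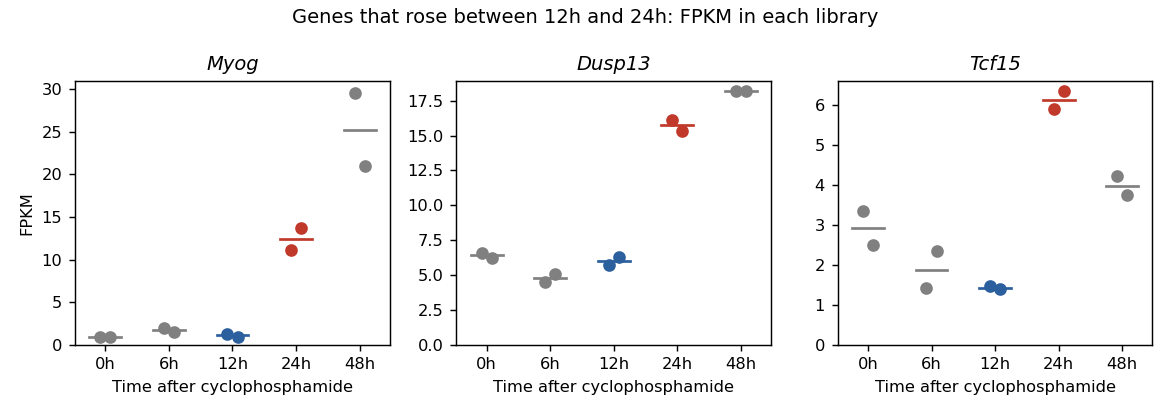
FPKM (vertical axis) of Myog, Dusp13 and Tcf15 in each of the 10 libraries by time after cyclophosphamide (horizontal axis), with points for libraries, bars for the mean of 2, red for 24h and blue for 12h. In each panel both 24h libraries lie above both 12h libraries, and Myog goes on to 29.5 and 20.99 FPKM at 48h.

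The 48h and 6h libraries take no part in the step, and so give a second reading. All 3 genes were also higher and past the threshold at 48h against 6h, with log2 fold changes of 3.25 for Myog (limma adjusted p = 7.59e-05), 1.74 for Dusp13 (limma adjusted p = 0.000142) and 0.80 for Tcf15 (limma adjusted p = 0.0337). Over all genes in that comparison 6084 of 13625 were higher and 370 rose, 2.72% of those tested, while calls in either direction were 5.75%. The libraries still share the fit's estimate of the spread. The call of Myog held in all 21 alternative settings. Dusp13 lost its call when the 2 times were fitted alone (adjusted p = 0.145), and when 12h library 2 (adjusted p = 0.131) or 24h library 3 (adjusted p = 0.104) was left out. Tcf15 lost its call in 10 of the 20 in which it was tested, with adjusted p from 0.0512 to 0.180 in those. Without 12h library 2 or without 24h library 3 the count of calls was 1, which was Myog.

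The promoter of Myog is shown because it is the gene with the clearest rise and its control by short E-boxes is textbook knowledge. The window runs from 250 bases before to 50 bases after the start (RefSeq, GRCm38.p6, chr1:134289754-134290053, plus strand), with matches to CANNTG in capitals, and was searched on both strands.
Myog: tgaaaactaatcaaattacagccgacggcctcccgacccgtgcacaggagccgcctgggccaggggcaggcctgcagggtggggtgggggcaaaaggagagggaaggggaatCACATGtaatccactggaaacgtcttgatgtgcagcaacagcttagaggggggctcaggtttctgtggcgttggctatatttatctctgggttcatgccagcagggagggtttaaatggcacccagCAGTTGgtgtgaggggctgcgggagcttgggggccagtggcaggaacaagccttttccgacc
The letters CANNTG occur 2 times in it, beginning 138 and 12 bases before the start. They also occur in 72.3% of the 32851 RefSeq promoters of this length, so a match says little by itself, and the 4 promoters of Dusp13 hold them too.

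Other genes that muscle switches on during regeneration, loss of its nerve or strain were mostly higher at 24h, short of the threshold. Of 22 tested genes of this kind, 1 rose (Myog), 0 fell and 21 did not pass. In 12 both 24h libraries lay above both 12h libraries and in 4 below, against 19.4% higher and 26.0% lower over all tested genes, and the list median log2 fold change was 0.44, or 0.17 with a pseudocount of 5 and 0.69 with one of 0.1. Ankrd1, a stress-responsive ankyrin repeat protein of muscle and other cells, stood at 34.4 and 20.2 FPKM at 24h, against 8.64 and 10.2 FPKM at 12h (log2 fold change 1.40, SE 0.27, limma adjusted p = 0.113). Chrna1, a subunit of the muscle acetylcholine receptor, stood at 2.45 and 1.33 FPKM at 24h, against 0.0840 and 0.451 FPKM at 12h (log2 fold change 1.18, limma adjusted p = 0.211). It reached 1 FPKM only at 24h and 48h. Chrnd, of the same list, did so only at 48h and was listed at 0 in both 12h libraries. Both genes were thus tested only through late libraries, where they are high, and both count among those apart upward. The same limit holds for them at 48h against 6h. Csrp3, which encodes a muscle LIM protein, stood at 243 and 189.9 FPKM at 24h, against 145 and 82.5 FPKM at 12h (log2 fold change 0.97, limma adjusted p = 0.273). Myod1, the myogenic factor that acts before myogenin, overlapped between the times at 1.80 and 3.52 FPKM at 24h, against 1.91 and 1.21 FPKM at 12h. Among the 4 that lay below, Xirp1, an actin-binding repeat protein, stood at 5.02 and 2.102 FPKM at 24h, against 11.5 and 6.12 FPKM at 12h (log2 fold change -1.13, limma adjusted p = 0.691), and Mstn, the growth inhibitor myostatin, stood at 2.51 and 1.88 FPKM at 24h, against 3.31 and 4.62 FPKM at 12h (log2 fold change -0.63, limma adjusted p = 0.414). Chrna1, Chrnd, Csrp3, Myod1, Xirp1 and Mstn were chosen after their values were seen. At 48h against 6h, 7 genes of this list rose and 1 fell, where 2.72% of all tested genes rose and 3.03% fell. The 7 include Chrna1 and Chrnd, which were tested only through late libraries and so lend no support. Ankrd1, also among the 7, rose by 4.11 on the log2 scale (limma adjusted p = 0.000138).

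Genes of the contractile apparatus were spread around 0. Of 30 tested skeletal muscle genes 0 passed, the groups were apart upward in 6 and downward in 1 (20% and 3.33%, against 19.4% and 26.0% of all genes), and the median log2 fold change was 0.10. Their summed levels, given above, overlapped between the times. Myh1, a myosin heavy chain of fast fibres, had the smallest p of them, with 179.6 and 167 FPKM at 24h, against 53.7 and 69.9 FPKM at 12h (log2 fold change 1.48, limma adjusted p = 0.277). Without 12h library 2 the list median was -0.13 and without 12h library 3 it was 0.35. At 48h against 6h, 8 of the 30 fell and 1 rose, where 3.03% of all tested genes fell and 2.72% rose. The list median in that comparison was -0.42.

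Among the gene lists, the interferon response had the highest median at 24h against 12h, although none of its genes passed over all genes. Of 36 tested interferon response genes, 0 passed in either direction, and in 33 both 24h libraries lay above both 12h libraries while in 2 they lay below, 91.7% and 5.56% of the list, where the background is 19.4% and 26.0%. The median log2 fold change was 0.96, and 27 were higher at an unadjusted p under 0.05. The mean was highest at 24h of all 5 times in 27 of the 36, against 9.09% of all tested genes, and lowest at 12h in 16 (44.4%, against 24.5% of all genes). Isg15 had already risen at 12h against 0h (limma adjusted p = 0.0403).

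Bst2 encodes tetherin, a membrane protein that holds budding virus at the cell surface. It stood at 72.7 and 109.7 FPKM at 24h, against 30.3 and 33.9 FPKM at 12h, and the groups did not overlap (log2 fold change 1.45, SE 0.19, limma adjusted p = 0.0547). Irf7, the transcription factor that amplifies type I interferon production, stood at 32.4 and 40.7 FPKM at 24h, against 10.8 and 12.1 FPKM at 12h (log2 fold change 1.59, SE 0.22, limma adjusted p = 0.0547). Isg15, a ubiquitin-like protein that is joined to other proteins after interferon, stood at 95.8 and 111 FPKM at 24h, against 37.4 and 59.8 FPKM at 12h (log2 fold change 1.11, SE 0.23, limma adjusted p = 0.156). The libraries did not overlap in any of the 3, and each had its highest mean at 24h. The adjusted p of Bst2 and Irf7 lay close to the threshold and passed it under some settings, at 0.0498 for both with a pseudocount of 0.1, at 0.0396 for both with median-of-ratios scaling, and at 0.0351 for Bst2 and 0.0375 for Irf7 with robust moderation. Bst2 also passed with hair genes left out (adjusted p = 0.0449) and without 24h library 2 (adjusted p = 0.00894), and Irf7 without 6h library 2 (adjusted p = 0.0385) or 6h library 3 (adjusted p = 0.0388), while without 24h library 3 they had adjusted p = 0.163 and 0.263. At 48h Isg15 was back at 20.3 and 29.5 FPKM, a fall from 24h that passed (log2 fold change -2.03, limma adjusted p = 0.00649). Bst2 at 55.4 and 63.3 FPKM and Irf7 at 16.5 and 21.1 FPKM lay between their 12h and 24h levels at 48h. Over the list 5 of the 36 fell at 48h against 24h, where 142 of all tested genes fell (1.04%), and the list median was -0.89. At 48h against 6h the list median was -0.19, with 3 rises and 1 fall, where 2.72% of all tested genes rose and 3.03% fell.

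The exceptions to the upward direction were few. Cxcl10, a chemokine that interferon gamma and other signals induce, stood at 10.02 and 11.2 FPKM at 24h, against 13.4 and 24.5 FPKM at 12h (log2 fold change -0.72, limma adjusted p = 0.493). Cxcl9, a ligand of the same receptor, stood at 0.418 and 0.472 FPKM at 24h, against 1.38 and 0.753 FPKM at 12h (log2 fold change -0.50, limma adjusted p = 0.494). It reached 1 FPKM only in library 2 of 6h and library 2 of 12h. Cxcl9 was thus tested only through times where it is high, and it counts among those apart downward. The libraries of Ifi27l2a overlapped between the times. These 3 genes were chosen after their values were seen. Genes of antigen processing, which interferon also induces, had smaller differences. Tap1, a peptide transporter, had a log2 fold change of 0.18 (limma adjusted p = 0.776) and Psmb8, an immunoproteasome subunit, one of 0.44 (limma adjusted p = 0.424), while Psmb10, a further immunoproteasome subunit, stood at 36.5 and 41.9 FPKM at 24h, against 23.2 and 22.1 FPKM at 12h (log2 fold change 0.77, limma adjusted p = 0.0626). Tap1 and Psmb8, also chosen after their values were seen, had their highest means at 48h rather than 24h.

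**Figure D2:**
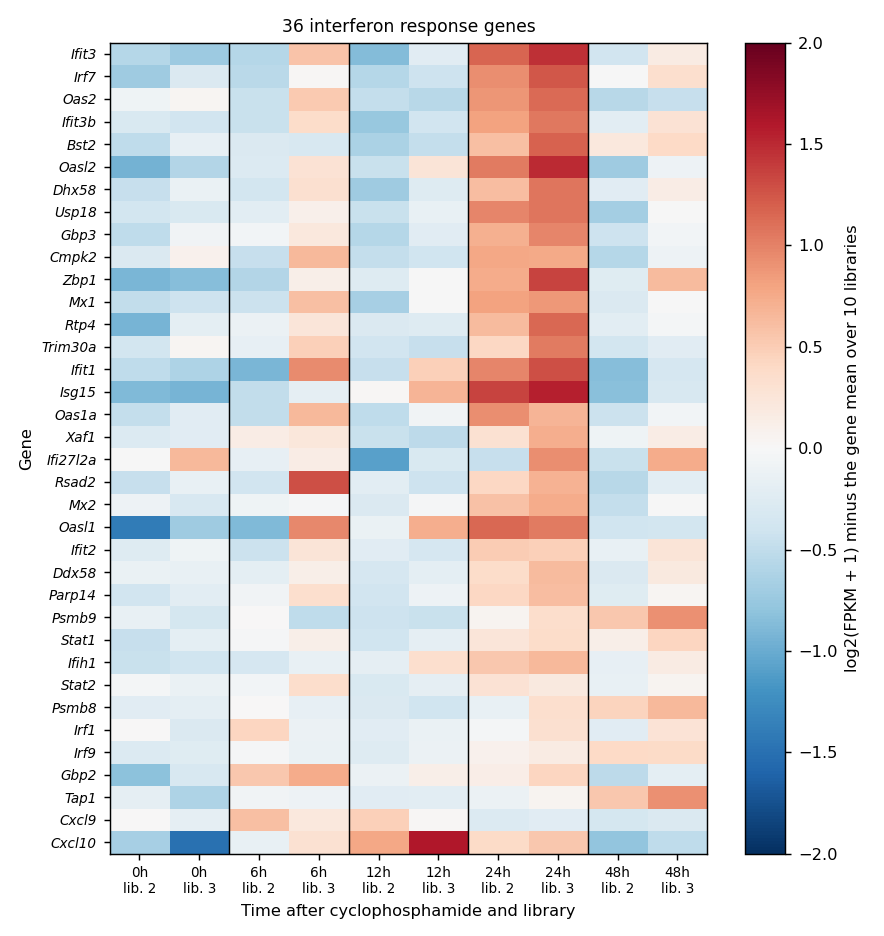
Heat map of 36 interferon response genes (rows, sorted by their 24h minus 12h difference) in 10 libraries (columns, in order of time), coloured by log2(FPKM + 1) minus the gene's mean over the libraries. Most genes are darkest red in the 24h libraries, while Cxcl10 and Cxcl9 at the bottom stand higher at 12h than at 24h.

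Promoters of interferon genes are shown for the core letters of the interferon-stimulated response element, the site bound by complexes of STAT and IRF factors. The core is GAAA repeated once after a gap of 2 free bases, and matches on either strand are in capitals, so that those on the other strand read as TTTC blocks. The windows are from RefSeq (GRCm38.p6), 250 bases before to 50 after the start, read along the gene, for Bst2 (chr8:71537423-71537722, minus strand), Isg15 (chr4:156200769-156201068, minus strand) and Ifit3 (chr19:34583279-34583578, plus strand).
Bst2: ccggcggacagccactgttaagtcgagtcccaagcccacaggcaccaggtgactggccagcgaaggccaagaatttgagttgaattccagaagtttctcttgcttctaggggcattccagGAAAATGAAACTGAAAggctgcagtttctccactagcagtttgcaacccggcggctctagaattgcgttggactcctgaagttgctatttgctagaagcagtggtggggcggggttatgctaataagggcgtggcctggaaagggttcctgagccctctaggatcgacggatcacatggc
Isg15: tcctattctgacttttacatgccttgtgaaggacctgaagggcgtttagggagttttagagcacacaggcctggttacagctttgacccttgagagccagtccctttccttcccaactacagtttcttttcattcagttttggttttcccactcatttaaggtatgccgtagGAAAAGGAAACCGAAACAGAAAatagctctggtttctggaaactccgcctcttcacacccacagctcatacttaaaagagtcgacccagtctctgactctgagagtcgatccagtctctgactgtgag
Ifit3: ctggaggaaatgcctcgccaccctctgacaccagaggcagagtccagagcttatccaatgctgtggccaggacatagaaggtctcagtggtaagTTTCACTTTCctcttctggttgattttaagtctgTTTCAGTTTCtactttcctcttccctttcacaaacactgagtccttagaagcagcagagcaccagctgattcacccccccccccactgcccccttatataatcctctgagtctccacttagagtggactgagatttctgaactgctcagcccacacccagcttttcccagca
Bst2 holds 2 overlapping matches and Isg15 holds 3, which run together as 1 stretch of capitals in each, and Ifit3 holds 2 separate ones. Of the 36 tested genes 26 had a promoter in the table, 31 promoters in all, and 15 of these (48.4%, of 14 genes) held the letters, against 3.44% of all 32851 promoters. Irf7 had none in this window. Ifit3, an antiviral protein chosen here after its values were seen, stood at 15.1 and 18.7 FPKM at 24h, against 2.91 and 5.11 FPKM at 12h (log2 fold change 1.86, limma adjusted p = 0.109).

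The macrophage and dendritic cell list had a median near 0, although more of its genes than of all genes were apart upward. The macrophage and dendritic cell list of 25 tested genes summed to 1067 and 1308 FPKM at 24h, against 1226 and 860 FPKM at 12h, with none of its genes at 0 in all 4 libraries. In 10 of the 25 the groups were apart upward and in 1 downward (40% and 4%, against 19.4% and 26.0% of all genes), 0 passed, and the median log2 fold change was 0.05, or -0.03 without 24h library 3 and 0.62 without 24h library 2. The 10 included Csf1r, the receptor for colony-stimulating factor 1, at 10.5 and 12.8 FPKM at 24h, against 8.71 and 5.33 FPKM at 12h (log2 fold change 0.68, limma adjusted p = 0.337), and C1qa, a complement subunit made by macrophages, at 104 and 156 FPKM at 24h, against 88.8 and 69.7 FPKM at 12h (log2 fold change 0.69, limma adjusted p = 0.372). Trem2, a receptor of macrophages and their relatives, stood at 5.501 and 7.55 FPKM at 24h, against 1.93 and 1.89 FPKM at 12h (log2 fold change 1.36, SE 0.19, limma adjusted p = 0.0547). The 9 tested lymphocyte genes summed with the untested ones to 17.3 and 20.9 FPKM at 24h, against 20.7 and 18.7 FPKM at 12h. The part of these cells in the interferon pattern was not tested.

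Mast cell proteases were higher at 24h, also without passing. Tpsb2, a tryptase of mast cell granules, stood at 18.5 and 27.7 FPKM at 24h, against 5.43 and 8.98 FPKM at 12h (log2 fold change 1.56, SE 0.32, limma adjusted p = 0.156). Mcpt4, a chymase, stood at 23.4 and 30.8 FPKM at 24h, against 14.5 and 14.7 FPKM at 12h (log2 fold change 0.84, limma adjusted p = 0.231). At 0h Tpsb2 had been at 14.7 and 23.6 FPKM and Mcpt4 at 25.99 and 39.2 FPKM, so the 24h values lay near those before the injection. S100a8, a calcium-binding protein of neutrophils and of stressed epidermis, stood at 384 and 218 FPKM at 24h, against 126 and 102 FPKM at 12h (log2 fold change 1.35, SE 0.28, limma adjusted p = 0.156). Retnlg, a resistin-like product of neutrophils, was listed at 0 in both 24h libraries, against 0.918 and 3.23 FPKM at 12h. Mcpt4 and Retnlg were chosen after their values were seen. Of the 14 tested neutrophil and mast cell genes 0 passed, with groups apart upward in 6 and downward in 2 (42.9% and 14.3%, against 19.4% and 26.0% of all genes) and a median log2 fold change of 0.44, or 0.02 without 12h library 2 and 0.84 without 12h library 3.

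**Figure D3:**
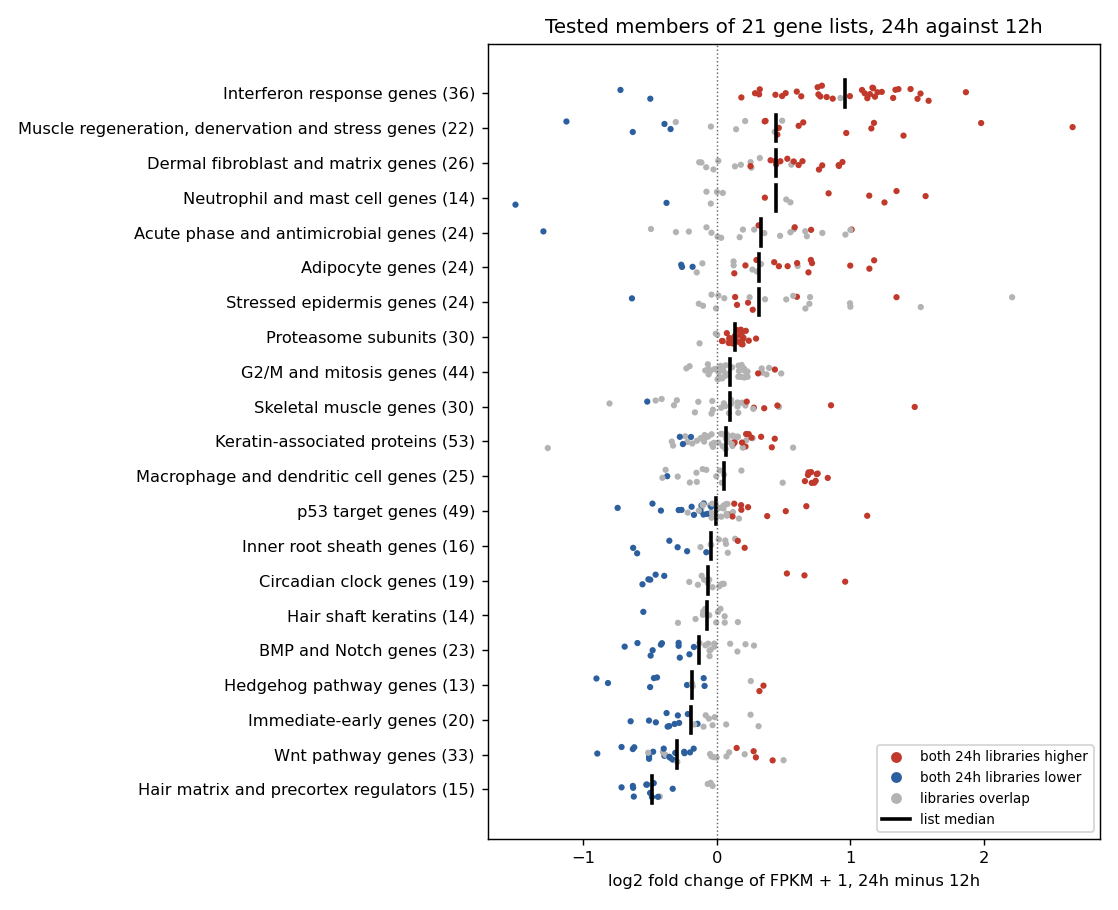
Log2 fold change of FPKM + 1, 24h minus 12h (horizontal axis), of each tested member of 21 gene lists (rows, number tested in brackets), red where both 24h libraries were above both 12h libraries, blue where both were below and grey where they overlapped, with a bar at each list's median. Interferon genes lie furthest to the right with a median of 0.96, and hair matrix regulators furthest to the left with a median of -0.49.

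Regulators of the hair bulb stood lower at 24h than at 12h, none of them past the threshold. Of 15 hair matrix and precortex regulators, all 15 had a log2 fold change below 0, where 7312 of all 13625 tested genes did. In 11 (73.3%) both 24h libraries were below both 12h libraries, against 26.0% of all genes. The list median was -0.49 and lay between -0.59 and -0.36 in the 21 alternative settings. Lef1, the DNA-binding partner of beta-catenin in the Wnt pathway, stood at 12.1 and 9.40 FPKM at 24h, against 20.0 and 16.5 FPKM at 12h (log2 fold change -0.71, SE 0.16, limma adjusted p = 0.182). Dlx3, a homeobox factor of the hair matrix and shaft, stood at 84.6 and 65.5 FPKM at 24h, against 122 and 109.7 FPKM at 12h (log2 fold change -0.63, SE 0.15, limma adjusted p = 0.211). Wnt10b, a Wnt ligand of anagen follicles, stood at 6.93 and 4.44 FPKM at 24h, against 11.1 and 7.55 FPKM at 12h (log2 fold change -0.63, limma adjusted p = 0.424). The groups did not overlap in any of the 3. In the libraries outside the step, 10 of the 15 fell at 48h against 6h, where 413 of all tested genes fell (3.03%), among them Lef1 by 1.52, Wnt10b by 1.93 and Dlx3 by 0.84 on the log2 scale (limma adjusted p = 0.00143, 0.00271 and 0.0116).

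**Figure D4:**
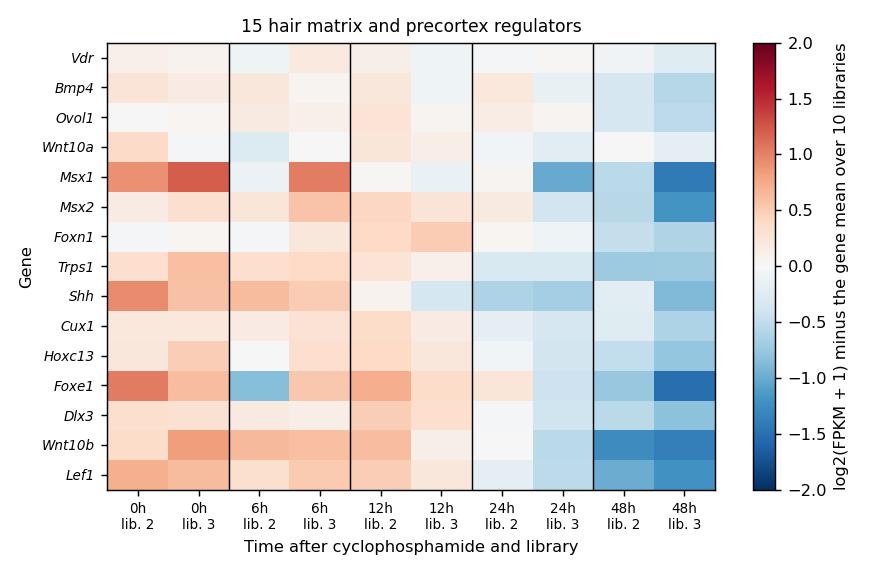
Heat map of 15 hair matrix and precortex regulators (rows, sorted by their 24h minus 12h difference) in 10 libraries (columns, in order of time), coloured by log2(FPKM + 1) minus the gene's mean over the libraries. Lef1, Wnt10b, Dlx3 and Foxe1 at the bottom are paler or bluer at 24h than at 12h, and most genes are bluest at 48h.

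In the lists of Wnt, Hedgehog, BMP and Notch genes more members were lower than higher at 24h, and none passed. The log2 fold change was below 0 in 25 of 33 Wnt, 10 of 13 Hedgehog and 19 of 23 BMP and Notch genes. Over all tested genes it was below 0 in 7312 of 13625. Some of these also belong to the hair matrix list above, so the lists are not separate readings. The shared genes are Lef1, Wnt10a and Wnt10b of the Wnt list, Shh of the Hedgehog list and Bmp4 of the BMP and Notch list. Fzd10, a Wnt receptor, stood at 20.7 and 17.4 FPKM at 24h, against 36.8 and 35.5 FPKM at 12h (log2 fold change -0.90, SE 0.14, limma adjusted p = 0.0721). It passed in 2 of 21 alternative settings, robust moderation (limma adjusted p = 0.0455) and a replicate block (limma adjusted p = 0.0452). At 48h it was at 20.1 and 17.8 FPKM, level with 24h (log2 fold change 0.00, limma adjusted p = 0.993). Apcdd1, a membrane inhibitor of Wnt signalling, was at 30.8 FPKM in both 24h libraries, against 54.0 and 46.1 FPKM at 12h (log2 fold change -0.68, SE 0.12, limma adjusted p = 0.0995). Of the 33 tested Wnt pathway genes the groups were apart downward in 17 and upward in 4 (51.5% and 12.1%, against 26.0% and 19.4% of all genes), with a median of -0.30, or -0.10 without 12h library 2 and -0.16 with a pseudocount of 5. The Hedgehog receptor and target gene Ptch1 had a log2 fold change of -0.82 (limma adjusted p = 0.264), and Shh, the ligand, stood at 1.75 and 1.63 FPKM at 24h, against 3.41 and 2.29 FPKM at 12h (log2 fold change -0.50, limma adjusted p = 0.522). Of the 13 tested Hedgehog genes the groups were apart downward in 8 and upward in 2 (61.5% and 15.4%, against the same background), with a median of -0.19, or -0.36 without 12h library 3, -0.09 without 12h library 2 and -0.09 with a pseudocount of 5. Of 23 BMP and Notch genes they were apart downward in 11 and upward in 0 (47.8% and 0%), with a median of -0.13. Leaving out 24h library 2 moved that median to -0.23, leaving out 24h library 3 to -0.08, leaving out 12h library 2 to -0.04 and leaving out 12h library 3 to -0.21. Jag1, a Notch ligand, stood at 19.6 and 16.7 FPKM at 24h, against 28.1 and 24.1 FPKM at 12h (log2 fold change -0.50, limma adjusted p = 0.271).

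The lower gene nearest to the threshold was Selenbp1, which encodes a selenium-binding protein with methanethiol oxidase activity. It stood at 70.8 and 55.9 FPKM at 24h, against 119.9 and 115 FPKM at 12h (log2 fold change -0.89, SE 0.13, limma adjusted p = 0.0601), and at 15.4 and 15.9 FPKM at 48h, a fall from 24h that passed (log2 fold change -1.94, limma adjusted p = 0.000529). Its difference between 24h and 12h passed in 2 of 21 alternative settings, robust moderation (limma adjusted p = 0.0433) and a replicate block (limma adjusted p = 0.0370). Sox21, a transcription factor of the hair shaft cuticle, stood at 12.1 and 9.82 FPKM at 24h, against 23.1 and 18.5 FPKM at 12h (log2 fold change -0.86, SE 0.15, limma adjusted p = 0.0947). The other lower genes named by the rule had adjusted p from 0.123 to 0.211 and log2 fold changes from -0.86 to -0.49. They were Tfap4, Klf13 and Myc, which are transcription factors, Socs1, an inhibitor of cytokine signalling, Sbk1, a kinase, Cntfr, a receptor for ciliary neurotrophic factor, and Tet3, an enzyme that oxidises methylcytosine. Myc stood at 12.3 and 13.6 FPKM at 24h, against 18.5 and 23.5 FPKM at 12h (log2 fold change -0.65, SE 0.14, limma adjusted p = 0.176).

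The gene lists of the shaft and its sheath, mostly structural genes, showed no common direction. Of 14 hair shaft keratins 0 passed and the groups were apart downward in 1 and upward in 0 (median -0.07, or -0.25 without 24h library 2 and 0.17 without 24h library 3), against 26.0% and 19.4% of all genes. That gene was Krt35, a keratin of the early cortex and cuticle, at 674 and 515 FPKM at 24h, against 906 and 824 FPKM at 12h (log2 fold change -0.55, SE 0.14, limma adjusted p = 0.264). It fell at 48h against 24h to 282 and 258 FPKM (log2 fold change -1.12, limma adjusted p = 0.00819). Of 53 keratin-associated proteins the groups were apart upward in 10 (18.9%, close to the 19.4% of all genes) and downward in 3 (5.66%), with a median of 0.07, or -0.08 without 24h library 2 and 0.21 without 24h library 3. Of 16 inner root sheath genes they were apart upward in 2 (12.5%) and downward in 6 (37.5%), with a median of -0.05, or -0.12 without 24h library 2 and 0.06 without 12h library 2. In 9 of those 16 a fall passed at 48h against 24h, where 1.04% of all genes fell. The 16 also hold the transcription factors Gata3 and Dlx3. Dlx3 is among the 6 downward and was counted with the matrix regulators above, so these lists are not separate readings either.

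Genes of the dermis and of fat tended to stand higher at 24h, by an amount that depended on 24h library 3. Of 26 dermal fibroblast and matrix genes 0 passed, the groups were apart upward in 14 and downward in 0 (53.8% and 0%, against 19.4% and 26.0% of all genes), and the median log2 fold change was 0.44. Without 24h library 3 the median was 0.15 and without 24h library 2 it was 0.71. Fbln2, an extracellular matrix glycoprotein, stood at 18.9 and 29.5 FPKM at 24h, against 13.7 and 10.7 FPKM at 12h (log2 fold change 0.91, SE 0.23, limma adjusted p = 0.233). Postn, the matrix protein periostin, stood at 34.7 and 75.5 FPKM at 24h, against 27.8 and 25.6 FPKM at 12h (log2 fold change 0.91, limma adjusted p = 0.392). The summed list overlapped at 1855 and 2851 FPKM at 24h, against 2676 and 1667 FPKM at 12h. The lowest mean of the 5 times fell at 12h in 18 of the 26 (69.2%, against 24.5% of all genes).

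Mxra8, a transmembrane protein of matrix remodelling, stood at 21.9 and 25 FPKM at 24h, against 11.9 and 10.02 FPKM at 12h (log2 fold change 1.04, SE 0.14, limma adjusted p = 0.0547). Of 24 adipocyte genes the groups were apart upward in 13 and downward in 3 (54.2% and 12.5%, against the same background), with a median of 0.31, or 0.06 without 24h library 3 and 0.66 without 24h library 2. Plin1, which coats the lipid droplet, stood at 8.83 and 17.1 FPKM at 24h, against 6.60 and 3.57 FPKM at 12h (log2 fold change 1.18, SE 0.38, limma adjusted p = 0.383). At 0h it had been at 12.0 and 21.2 FPKM, and 13 of the 24 had their lowest mean at 12h (54.2%, against 24.5% of all genes).

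**Figure D5:**
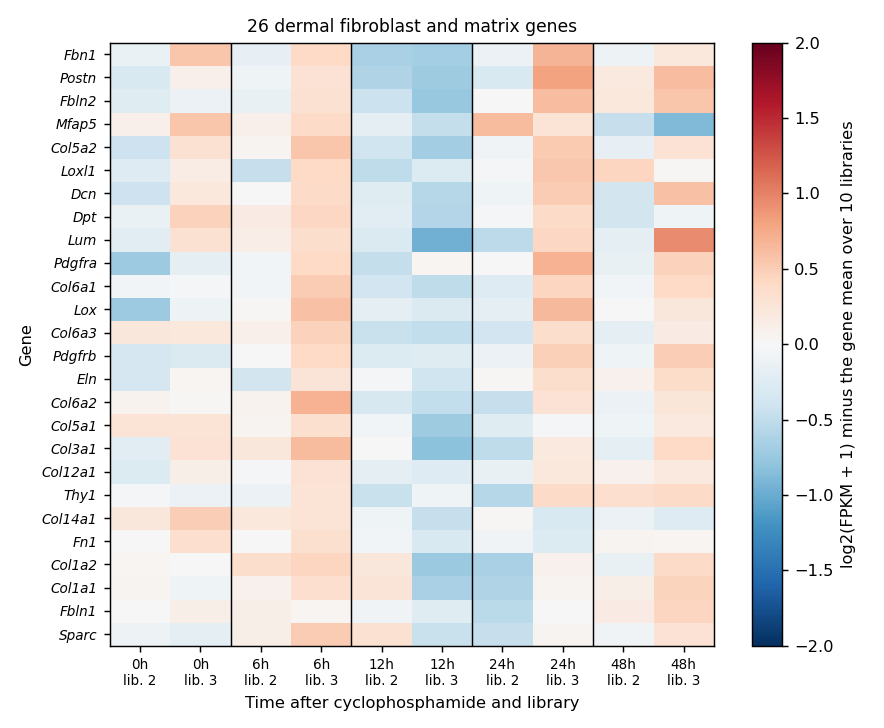
Heat map of 26 dermal fibroblast and matrix genes (rows, sorted by their 24h minus 12h difference) in 10 libraries (columns, in order of time), coloured by log2(FPKM + 1) minus the gene's mean over the libraries. The 12h libraries are bluest for most genes, and 24h library 3 is redder than 24h library 2.

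The remaining named genes above the step were Scrg1, a small secreted protein first described in prion disease, Sgce, a sarcoglycan of the dystrophin complex, H2-T9, a class I histocompatibility gene, and Gstt1, a glutathione transferase. Scrg1 stood at 4.96 and 5.92 FPKM at 24h, against 1.77 and 1.495 FPKM at 12h (log2 fold change 1.29, SE 0.18, limma adjusted p = 0.0547). Its 48h values, 7.76 and 7.88 FPKM, were above 6h at 2.94 and 1.94 FPKM, a rise that passed (log2 fold change 1.37, limma adjusted p = 0.00370). H2-T9 belongs to a family of near-identical genes, so reads may be split between copies. It stood at 36.5 and 37.6 FPKM at 24h, against 21.6 FPKM in both 12h libraries (log2 fold change 0.75, SE 0.11, limma adjusted p = 0.0643).

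Most proteasome subunits stood slightly higher at 24h. Of 30 proteasome subunits both 24h libraries were above both 12h libraries in 27 (90.0%) and below in 0, against 19.4% and 26.0% of all genes, yet the median log2 fold change was 0.13, or 0.08 with quantile normalization, 0 passed and 1 had an unadjusted p under 0.05. Psmb3, a subunit of the core particle, stood at 382 and 401 FPKM at 24h, against 327 and 337 FPKM at 12h (log2 fold change 0.24, SE 0.13, limma adjusted p = 0.587). Of 30 nuclear genes of oxidative phosphorylation the groups were apart upward in 15 and downward in 2 (50% and 6.67%, median 0.10, or 0.06 without 12h library 3 or 24h library 3). Of 30 cytosolic ribosomal protein genes they were apart upward in 3 and downward in 10 (10% and 33.3%, median -0.03). Of these, Rps27, whose row also names Rps27rt so that its reads may be split with another row of that name, stood at 265 and 522 FPKM at 24h, against 4.68 and 162 FPKM at 12h (log2 fold change 3.62, SE 1.79, limma adjusted p = 0.552).

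Immediate-early genes, which cells switch on within minutes of a stimulus, were lower at 24h. Of 20 tested, 0 passed, the groups were apart downward in 11 and upward in 0 (55.0%, against 26.0% of all genes), and the median log2 fold change was -0.19, or -0.30 without 24h library 2. In 11 of them the mean was highest at 12h of all 5 times, against 8.34% of all genes. Egr3, a zinc finger factor of this class, stood at 24.8 and 23.6 FPKM at 24h, against 37.9 and 32.1 FPKM at 12h (log2 fold change -0.51, limma adjusted p = 0.383).

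The DNA damage response gave no common direction across this step. Of 49 tested p53 target genes 0 passed, the groups were apart upward in 10 and downward in 13 (20.4% and 26.5%, close to the background of 19.4% and 26.0%), and the median was -0.01. Cdkn1a, the p21 inhibitor of cell division, stood at 258 and 238 FPKM at 24h, against 288 and 252 FPKM at 12h (log2 fold change -0.12, limma adjusted p = 0.802). Mdm2, the ligase that limits p53, stood at 20.4 and 20.3 FPKM at 24h, against 19.5 and 18.8 FPKM at 12h (log2 fold change 0.09, limma adjusted p = 0.859). Single members differed more. Mgmt, which removes alkyl groups from guanine, stood at 19.1 and 21.5 FPKM at 24h, against 10.1 and 7.57 FPKM at 12h (log2 fold change 1.13, SE 0.25, limma adjusted p = 0.197), and it rose at 48h against 6h by 2.84 on the log2 scale (limma adjusted p = 0.000824). Bbc3, the apoptosis activator Puma, stood at 14.3 and 13.1 FPKM at 24h, against 22.9 and 24.4 FPKM at 12h (log2 fold change -0.74, SE 0.24, limma adjusted p = 0.375). Trp53 itself stood at 24.8 and 25.7 FPKM at 24h, against 33.0 and 32.1 FPKM at 12h (log2 fold change -0.35, limma adjusted p = 0.521).

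Cell division genes had medians close to 0. Of 44 G2/M and mitosis genes the groups overlapped in 42 and were apart upward in 2 (4.55%, against 19.4% of all genes), with a median log2 fold change of 0.10, or -0.16 without 12h library 3 and 0.39 without 12h library 2. Their lowest mean of the 5 times was at 12h in 30 (68.2%, against 24.5% of all genes) and at 24h in 12 (27.3%, against 29.0% of all genes). Mki67, a marker of cycling cells, stood at 8.58 and 6.20 FPKM at 24h, against 10.8 and 6.75 FPKM at 12h (log2 fold change -0.21, limma adjusted p = 0.802). Of 44 S phase genes the groups were apart upward in 3 and downward in 4 (6.82% and 9.09%, median 0.02, which became -0.13 without 12h library 3 and 0.16 when 12h library 2 was left out), and 0 of either list passed. At 48h against 24h 6 mitosis genes and 7 S phase genes rose, where 166 of all tested genes rose (1.22%).

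The hours of injection and sampling are not given in the labels, so that any difference in time of day between the 24h and 12h samples cannot be told apart from the time since injection. Of 19 tested circadian clock genes 0 passed, with groups apart upward in 3 and downward in 5 (15.8% and 26.3%, near the background) and a median of -0.07. The 3 upward were Nr1d1 and Nr1d2, nuclear receptors that repress the positive limb of the clock, and Dbp, a clock output factor. Nr1d1 stood at 12.3 and 14.9 FPKM at 24h, against 5.72 and 7.26 FPKM at 12h (log2 fold change 0.96, SE 0.17, limma adjusted p = 0.101). Dbp stood at 4.88 and 7.02 FPKM at 24h, against 3.46 and 3.27 FPKM at 12h (log2 fold change 0.66, limma adjusted p = 0.448). At 0h Nr1d1 had been at 17.4 and 13.9 FPKM, and the fall at 12h against 0h passed (limma adjusted p = 0.0226), while 24h against 0h did not (limma adjusted p = 0.564). The 5 downward included Cry1 and Per2. Per2, a repressor of the clock, stood at 1.18 and 0.834 FPKM at 24h, against 2.33 and 1.61 FPKM at 12h (log2 fold change -0.56, limma adjusted p = 0.463). Arntl and Clock, the positive limb, overlapped between the times. The letters CACGTG, the E-box bound by that limb, were in 6 of the 20 promoters of 15 clock genes (30.0%), against 7.15% of all promoters. Those were promoters of Bhlhe41, Ciart, Cry1, Per1 and Tef, while Nr1d1 and Dbp had none in this window. The D-box letters TTATGNAA were in 2 of the 20 (10%, against 3.38%), of Per1 and Per3.

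Some lists varied widely between the libraries of a time. Of 24 stressed epidermis genes the groups were apart upward in 6 and downward in 1 (25% and 4.17%, against 19.4% and 26.0% of all genes), with a median of 0.31, or -0.02 without 24h library 3 and 0.68 without 24h library 2. Krt6a, a keratin of wounded epidermis, stood at 339 and 569 FPKM at 24h, against 276 and 304 FPKM at 12h (log2 fold change 0.60, limma adjusted p = 0.393). Of 24 acute phase and antimicrobial genes they were apart upward in 4 and downward in 1 (16.7% and 4.17%), with a median of 0.33, or -0.03 without 24h library 3 and 0.67 without 24h library 2. Serpina3n, a secreted protease inhibitor, stood at 179 and 212 FPKM at 24h, against 63.5 and 146 FPKM at 12h (log2 fold change 1.01, SE 0.40, limma adjusted p = 0.452). Red blood cell genes summed to 999.8 and 107 FPKM in the 24h libraries 2 and 3, against 734 and 175 FPKM in the 12h libraries 2 and 3, so that library 2 was the higher at both times. Of their 9 tested members 0 passed.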

How the data were processed

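RNA-seq gene levels of 10 libraries of mouse back skin were used, as FPKM in the gene table that the authors deposited. TopHat2 2.1.1, Cufflinks 2.2.1 and the mm10 build are named per the submitters' processing notes, with no role for either tool. Annotation, filtering and scaling were not given in the sources used here. FPKM as the unit follows from Cufflinks and the values the authors deposited, since the header names none, and absolute depth is unknown. Of 24358 rows, 27 whose symbol had become a date were left out, which left 24331 genes, and 103 rows name several genes counted together. The 10 columns carry the numbers 2 and 3, while the labels number libraries 1 and 2, which is why a column was tied to a time and not to a particular label, and libraries are called by the number in the table.

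Differences were tested with limma 3.58.1 in R 4.3.3 (1 mean per time, empirical Bayes with an intensity trend, two-sided) on log2(FPKM + 1). All 10 libraries entered 1 fit (5 residual degrees of freedom, median prior 4.92). A gene needed 1 FPKM in 2 or more libraries to be tested, which 13625 had, with Benjamini-Hochberg adjustment over all of them and a threshold of 0.05. "Rose" and "fell" are used only for genes past it, and "apart" means that both libraries of one time lie above both of the other. The test was run on simulated data only with changes larger than most described here, so that run does not speak for smaller ones. Errors of FPKM are SD over n = 2.

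The comparison and the gene lists were chosen with earlier results of these data known, so list counts are descriptions beside those of all genes, with no set test. Named genes were the 12 largest rises and falls past the threshold with a mean of at least 5 FPKM in the higher time and libraries apart, without predicted genes, with places left over filled by the smallest p. From each list up to 4 called members or the 2 of smallest p could be named, and a set of marker genes and all clock genes were named whatever their values. Not every gene this allowed is described. Genes outside the rule are marked as chosen after their values were seen.

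Promoters are from RefSeq (GRCm38.p6). The search had been planned for list members past the threshold, of which there were 0, so whole lists were searched, and CANNTG was added after the data were seen. Coordinates of genes are from GENCODE M21 on mm10. The alternatives tried were other pseudocounts, filters, scalings and moderation, leaving out hair genes, a fit of the 2 times alone, a replicate block and leaving out each library.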

Additional observations from a re-analysis of the deposited data

How the results depend on the processing

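The 3 calls at 24h against 12h became 10 with a pseudocount of 0.1 (9 higher, 1 lower), 10 with median-of-ratios scaling (9 and 1), 5 with hair genes left out and 15 with robust moderation (12 and 3). The 3 genes were among the calls in each of these, and the cause was not tested. With a pseudocount of 5, quantile normalization or no intensity trend the count was 3, and with no filter it was 3 (2 of them the same genes). It was 2 with the filter raised to a mean of 5 FPKM (Myog and Dusp13). With the 2 times alone it was also 2, of which only Myog was among the 3. With the replicate block it was 42 (37 and 5), 12 of them interferon response genes. The labels do not say that a number marks a shared animal. Same-numbered libraries of 24h and 12h deviated together only weakly over all genes (r = 0.21), a value that does not speak for a single list. The interferon list summed higher in library 3 than in library 2 at all 5 times. Libraries 2 and 3 had 347 and 473 FPKM at 12h, and 624 and 988 FPKM at 24h. Whether a number marks anything shared was not tested, the numbers were not used as a pairing, and the 42 calls are a hint only. Leaving out 1 library gave 1 to 7 calls, the 1 call being Myog when 12h library 2 or 24h library 3 was left out, and the 7 coming without 24h library 2 or either 6h library. Leaving out a library leaves that time with 1, which is assumed to vary like the other times.

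For 48h against 6h the 783 calls became 452 with no filter and 429 in a fit of the 2 times alone, and 117 to 762 with a library left out (325 and 117 without libraries 2 and 3 of 48h, 419 and 379 without those of 6h). All the calls tested kept their sign.

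The interferon list median lay between 0.48 (pseudocount 5) and 1.31 (pseudocount 0.1). Some log2 fold changes of 24h against 12h changed sign, none of them past the threshold. Hbb-bs had the largest of them, -2.07 with all libraries. With quantile normalization Tef was at 0.00283 and Clock at -0.00463, and with hair genes left out Arntl was at -0.0106. With 1 library left out the values ran from -0.0891 to 0.123 for Arntl, -0.0143 to 0.117 for Bhlhe41, -0.56 to 0.14 for Ciart, -0.19 to 0.27 for Clock, -0.29 to 0.000892 for Cry2, -5.30 to 1.17 for Hbb-bs, -0.23 to 0.0883 for Hlf, -0.51 to 0.10 for Mki67, -0.14 to 0.0205 for Per1, -0.12 to 0.18 for Per3, -0.23 to 0.0369 for Rora, -0.13 to 0.0651 for Tef and -0.29 to 0.0639 for Wee1.

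With 2 libraries a time and a median standard error of 0.16, a difference that missed the threshold is not shown to be absent.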
